A study of Mus musculus with 12 samples.

Results

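The 10 genes described here encode heat shock proteins and their partners: Hspa1a, Hspa1b, Hspa8, Hsp90aa1, Hsph1, Hspe1, Hspd1, Hspb1, Dnajb1 and Dnaja4. They were taken by name from the 31053 genes of the deposited matrix, all 10 were found there, and they were chosen because earlier results of these data showed them to vary between libraries and because tissue dissociation can induce them. The data are single-cell RNA-Seq counts of CD45+ cells from subcutaneous MC38 tumors, a colon carcinoma line grown in C57BL/6 mice. 12 mice were studied, 3 in each of 4 groups, with tumors taken on day 17. Mice received either vehicle or PF-06821497 at 100 mg/kg, injected subcutaneously each day for the last 7 days or for 16 days. PF-06821497 inhibits EZH2, the enzyme that places the repressive H3K27me3 mark on histones. All groups shared the tumor line, the strain, the daily injections and the enrichment of CD45+ cells on beads.

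The matrix numbers its libraries from 1 to 12, and neither its barcodes nor the sample labels tie a number to a mouse or a treatment. No library was therefore assigned to a group, and no groups were compared. The whole matrix was treated as 1 sample, the libraries were described side by side, and no test was run and no p-value is given. Libraries 1 to 6 held transcripts of 4 Y-linked genes at 128 to 209 UMIs of 1000000 (CPM) and libraries 7 to 12 held none, although the study describes female mice. These sets were therefore also described separately. Of 140639 barcodes, 128912 passed the study's limits on genes and mitochondrial UMIs, with a median of 2291 to 15081 UMIs per library. 4547 barcodes (3.23%) had a sequence seen in more than 1 library. Of the cells kept in library 4, 0.425% were gated as lymphoid cells, below the 3.24 to 15.5% of the other libraries. It lost 21.9% of its barcodes to the limits, near the 21.8% of library 12 and below the 27.3% of library 8. Those libraries were deeper, with medians of 15081 and 14555 UMIs against 4132 in library 4. The remaining libraries lost 1.83 to 9.90%. Among them, libraries 5 and 10 of like depth (3974 and 4851 UMIs) lost 5.4 and 4.4%. The 9.05% of neutrophils in library 4 stood near the 8.11% of library 12 and the 6.41% of library 8.

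Cells were sorted into classes by UMIs of lineage markers, none of which is a heat shock gene. The gates gave 87950 macrophages, 5027 monocytes, 2668 neutrophils, 634 type 1 dendritic cells, 674 mature dendritic cells, 165 plasmacytoid dendritic cells, 5952 T cells (3318 CD8 and 714 CD4), 390 NK cells, 324 B cells and 76 collagen-positive cells. Ptprc, which encodes CD45, was detected in 55.5 to 91.7% of the cells of each leukocyte class and in 19.7% of the collagen-positive cells. Apoe, an abundant macrophage transcript, stood at 18839 CPM in macrophages, 5078 CPM in monocytes, 1750 CPM in neutrophils, 707 CPM in CD8 T cells and 433 CPM in type 1 dendritic cells, and how much of this was free macrophage RNA was not tested.

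Heat shock proteins are chaperones that keep other proteins folded. Under heat, oxidants or other protein damage the transcription factor HSF1 forms trimers, binds repeated GAA units called heat shock elements, and raises transcription within minutes. Some family members, such as Hspa8 and Hspd1, are made in all cells at all times, whereas Hspa1a and Hspa1b are nearly silent at rest. Because cells are warmed, cut and digested before capture, these genes can be switched on after a tumor leaves the animal.

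Hspa1a and Hspa1b encode the inducible cytosolic HSP70 and lie next to each other on chromosome 17 (GRCm38; Hspa1a chr17:34969190-34972156, Hspa1b chr17:34956436-34959238, both minus strand), with 9951 bases between them. The 250 bases before their starts were 98.8% identical. Their whole transcripts were 86.8% identical in a global alignment, and the last 300 bases, where reads of a 3' library gather, 55.5%. How reads that match both were counted is not given in the sources used here, so the split between them is uncertain. Promoter windows of 8 of the 10 genes were found in the RefSeq table (GRCm38.p6, 250 bases before to 50 after each start). The searched motifs were GAANNTTC and TTCNNGAA, each its own reverse complement, and the longer GAANNTTCNNGAA with its reverse complement TTCNNGAANNTTC, which contain the short ones. GAANNTTC or TTCNNGAA occurred in the windows of 7 of these 8 genes and of 17.0% of all 27025 genes in the table. A 3-unit motif occurred in 3 of the 8 genes, Hsph1, Hspe1 and Hspd1, and in 0.662% of all genes. The windows of Dnajb1 held none of these letters. The 150 bases before the start are printed 5′ to 3′ on the gene's strand for 5 genes whose levels the results turn on, with matches in capitals.
Hspa1a (chr17:34972157-34972306, minus strand): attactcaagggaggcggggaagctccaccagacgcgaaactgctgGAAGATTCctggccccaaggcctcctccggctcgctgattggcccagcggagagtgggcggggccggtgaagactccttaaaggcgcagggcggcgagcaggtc
Hspa1b (chr17:34959239-34959388, minus strand): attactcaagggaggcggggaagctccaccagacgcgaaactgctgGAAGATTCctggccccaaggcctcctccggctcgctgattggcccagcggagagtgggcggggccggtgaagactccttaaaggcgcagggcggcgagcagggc
Hspb1 (chr5:135887769-135887918, plus strand): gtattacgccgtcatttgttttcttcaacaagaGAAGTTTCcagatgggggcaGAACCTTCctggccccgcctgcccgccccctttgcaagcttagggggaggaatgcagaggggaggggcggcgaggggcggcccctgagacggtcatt
Hsph1 (chr5:149636316-149636465, minus strand): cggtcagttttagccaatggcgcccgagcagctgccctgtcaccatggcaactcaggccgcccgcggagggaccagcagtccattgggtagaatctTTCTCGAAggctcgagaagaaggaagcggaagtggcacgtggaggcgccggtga
Hspe1 (chr1:55087998-55088147, plus strand): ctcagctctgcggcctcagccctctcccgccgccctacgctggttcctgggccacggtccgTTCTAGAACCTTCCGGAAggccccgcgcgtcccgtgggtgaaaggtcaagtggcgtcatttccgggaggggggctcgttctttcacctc
Hspa1a and Hspa1b carried the same match, GAAGATTC, 104 to 97 bases before the start. Hspb1 carried 2 matches at 117 to 110 and 97 to 90 bases before its start. The 3-unit match of Hsph1, TTCTGGAAAGTTC, lay 16 to 28 bases after the start of one of its windows in the table and 37 to 49 bases after that of the other. Hspe1 and Hspd1 lie head to head on chromosome 1, and the run of 4 units in capitals in the Hspe1 window is read from the other strand in the Hspd1 window. A match is a string of letters and was not tested as a bound site.

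Hspa1a and Hspa1b set library 4 apart. In macrophages Hspa1a measured, from library 1 to library 12, 212, 240, 158, 1513, 115, 52.9, 87.7, 314, 109, 61.2, 89.2 and 164 CPM. Library 4 was the highest and lay apart from the others, which ran from 52.9 CPM in library 6 to 314 CPM in library 8. Hspa1b measured 56.4, 86.1, 86.7, 1298, 73.1, 22.6, 38.2, 128, 47.4, 32.9, 41.7 and 85.0 CPM in the same order. Library 4 was again above all others. On the ratio of (CPM + 1), used for the folds of library 4, for calls of 2-fold and for cells with over without Hspa1 transcripts, Hspa1a was 13.1-fold and Hspa1b 22.6-fold above the median of the other 11 libraries. The ratio of Hspa1a to Hspa1b was 1.17 in library 4 and 1.57 to 3.76 in the others.

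**Figure D1:**
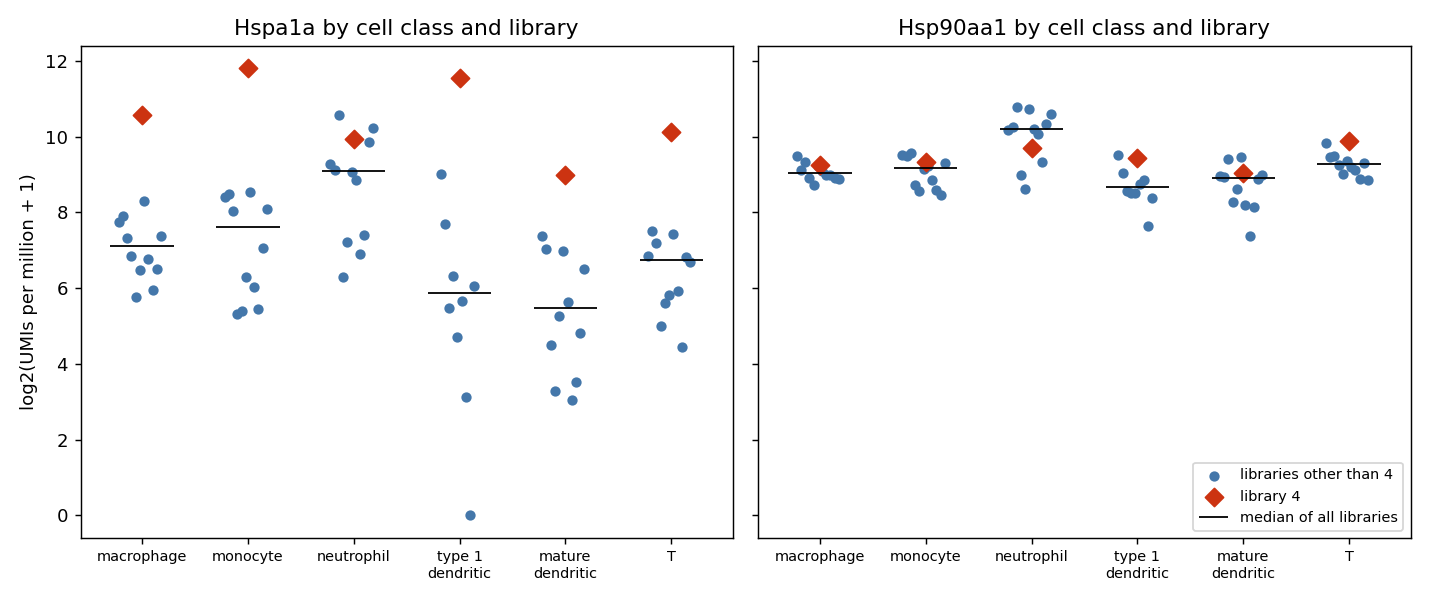
Levels of Hspa1a (left) and Hsp90aa1 (right) in 6 cell classes, as log2 of (CPM + 1), with 1 point per library that had at least 20 cells of the class; diamonds are library 4 and lines the median of all libraries. Hspa1a of library 4 lies above every other library in all classes shown but neutrophils, whereas its Hsp90aa1 lies above every other library only in T cells.

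The same library was highest for both genes in every class with at least 20 of its cells except for Hspa1a in neutrophils. In monocytes Hspa1a stood at 3572 CPM in library 4 and at 39.2 to 369 CPM in the others, a 27.0-fold difference from their median. In type 1 dendritic cells, of which library 4 had 26, it stood at 3006 CPM against a highest other value of 513 CPM (59.1-fold over the median). In mature dendritic cells it stood at 503 CPM against at most 164 CPM (13.1-fold). In the 25 T cells of library 4 it stood at 1106 CPM against at most 180 CPM (10.8-fold). Neutrophils differed. Their Hspa1a stood at 973 CPM in library 4, below the 1518 CPM of library 3 and the 1188 CPM of library 12. Its 1.81-fold over the median of the others was 1.04-fold by the mean over cells. Hspa1b of library 4 neutrophils stood at 787 CPM (3.61-fold), with 763 CPM as the next highest. Their Hsph1 stood at 65.2 CPM (5.63-fold), with 61.7 CPM as the next highest.

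The other members followed Hspa1a and Hspa1b only in part. Hsph1, an HSP110 nucleotide exchange factor for HSP70, measured 153 CPM in macrophages of library 4 and at most 56.3 CPM elsewhere (3.74-fold over the median). In monocytes it measured 153 CPM and at most 62.8 CPM elsewhere. Dnajb1, the J-domain partner of inducible HSP70, measured 112 CPM in macrophages of library 4 and 43.2 to 70.2 CPM elsewhere (2.13-fold), yet in monocytes its 61.8 CPM lay within the range of the others (up to 72.5 CPM). Hspb1, a small heat shock protein, measured 21.7 CPM in macrophages of library 4, below the 22.3 CPM of library 8.

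In macrophages, Hsp90aa1 and the constitutive and mitochondrial chaperones of library 4 lay near the other libraries. Hsp90aa1, the stress-inducible cytosolic HSP90, measured 608 CPM in macrophages of library 4 and 421 to 715 CPM in the others. Hspa8, the constitutive HSP70, measured 2165 CPM, 1.15-fold over the median of the others. Hspe1 and Hspd1, the small and the large subunit of the mitochondrial chaperonin, differed from that median by 1.06-fold and 0.885-fold. Both were lower in its monocytes, where Hspe1 measured 145 CPM, the lowest of the 12 libraries. In type 1 dendritic cells of library 4 Hsp90aa1 measured 697 CPM, 1.84-fold over the median of the others, with library 1 higher at 730 CPM. Hspa8 there measured 4208 CPM, 1.45-fold, with library 12 higher at 4335 CPM. In T cells Hsp90aa1 of library 4 was the highest of the 12, at 952 CPM and 1.56-fold.

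9 of the 10 genes passed a filter of 10 CPM on either side in macrophages, and 5 of these 9 were at least 2-fold higher in library 4, with none 2-fold lower. Of all 7676 genes that passed, 2.91% were as much higher and 1.20% as much lower. The 5 members were Hspa1a, Hspa1b, Hsph1, Dnajb1 and Hspb1. Hspb1 passed only through library 4 (21.7 CPM against a median of 7.53 CPM), so the filter itself favored its call. Hspa1a, Hspa1b, Hsph1 and Dnajb1 were above every other library, as were 17.1% of all genes, and none of the 9 was below every other library, as 17.5% of all genes were. Library 4 and its Hspa1a levels were known when the genes were chosen, so this count is a description. In monocytes 3 of 8 passing members were at least 2-fold higher and none 2-fold lower (background 11.2 and 4.39%). In type 1 dendritic cells the counts were 4 and 0 of 8 (background 16.1 and 10.7%) and in mature dendritic cells 3 and 0 of 8 (background 10.2 and 4.24%). Ranked by fold in macrophages, Hspa1b was 9 and Hspa1a 20 of 7676 genes, and the first 15 also held Igkc, Ppbp, S100a9, 4 hemoglobin genes and the Y-linked Ddx3y, Eif2s3y and Uty. The first of these mark B-lineage cells, platelets, neutrophils and red blood cells. The median of the others takes in libraries 7 to 12, which held no Y-linked transcripts. Against libraries 1 to 6 alone, a comparison chosen after the data were seen, library 4 was 9.49-fold higher for Hspa1a and 17.5-fold for Hspa1b in macrophages, and 13.7-fold for Hspa1a in monocytes, where it was 27.0-fold over all the others. Hemoglobin transcripts of 4 genes measured 133 CPM over all kept cells of library 4 and 0.344 to 251 CPM in the others, and the part of such RNA in the levels of heat shock genes was not tested. Within library 4, Apoe of monocytes, neutrophils, type 1 dendritic cells and mature dendritic cells stood at 45.3, 16.3, 3.53 and 3.67% of its macrophage level, and Hspa1a at 236, 64.3, 199 and 33.3%. The monocyte value for Apoe was the highest of the libraries, with 14.4 to 31.1% in the others. The part of macrophage RNA in the monocyte levels of library 4 was not tested.

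Of 44 listed cochaperones and further HSF1 targets, 36 passed the filter in macrophages, and 0 were 2-fold higher and 0 2-fold lower in library 4, near the 2.91 and 1.20% of all genes. The largest differences were Bag3, an HSP70 exchange factor (50.7 CPM against a median of 27.3, 1.83-fold), Hspa4l (1.78-fold) and Dnaja1, a J-domain protein (386 against 228 CPM, 1.69-fold). The J-domain gene Dnaja2 (0.625-fold) and Cct2 of the cytosolic chaperonin (0.691-fold) were lower than in every other library, and Bag3 and Dnaja1 were higher, with 31.5 and 320 CPM as the highest of the others. Hspa4l was not, at 71.0 CPM against up to 84.6 CPM. Of 5 listed regulators only 2 passed, and Hsbp1, an HSF1-binding protein, stood at 1.12-fold. Of 17 genes of the unfolded protein response of the endoplasmic reticulum, a separate stress pathway, none was 2-fold higher and Herpud1 was lower (45.6 against 107 CPM, 0.431-fold). The median log2 difference was −0.34 over that list, −0.18 over the cochaperones and −0.00039 over all genes that passed.

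Stress genes outside the chaperones are set beside the same 2.91% of all genes 2-fold higher and 1.20% lower. Of 19 immediate early genes, which respond within minutes to many stimuli, only Egr1 was 2-fold higher (671 CPM against 93.2 to 418 CPM in the others). Egr2 stood at 1.81-fold (112 CPM, with 109.5 CPM as the highest of the others), while Klf4 (0.522-fold), Btg2 (0.529-fold) and Fosb (0.562-fold) were lower than the median. Of 8 oxidative and metal stress genes, 7 passed and 2 were 2-fold higher, Hmox1, which encodes heme oxygenase 1 (1402 CPM against 133 to 749 CPM, 6.52-fold), and the metallothionein Mt2 (236 CPM against 37.9 to 174 CPM, 3.09-fold).

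To see how many cells carried the inducible transcripts, each cell was thinned to 1000 UMIs, which left out 0.221% of the macrophages and 5.25% of the monocytes as too shallow. In library 4 76.1% of the macrophages held at least 1 Hspa1a or Hspa1b UMI and 24.3% held at least 5. In the other libraries 3.40 to 12.5% held at least 1 and 0.294 to 3.04% held at least 5. In monocytes 56.0% held at least 5 in library 4 and 0 to 3.91% did elsewhere. The transcripts were thus found in most macrophages and monocytes of library 4 and in a minority of them in every other library. In library 4 42.6% of mature dendritic cells and 60.0% of T cells held at least 1 such UMI. Of its neutrophils 32.2% held an Hspa1a UMI and 28.5% an Hspa1b UMI after thinning. The other libraries with enough neutrophils reached at most 24.2 and 18.2%. Thinning left out 31.1% of all neutrophils. At full depth, before thinning, 87.5% of library 4 macrophages held an Hspa1a UMI, and the share in the other classes with at least 20 cells ran from 35.9% in its neutrophils to 100% in its type 1 dendritic cells. No class is known to lack the gene, so free RNA has no direct measure here.

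**Figure D2:**
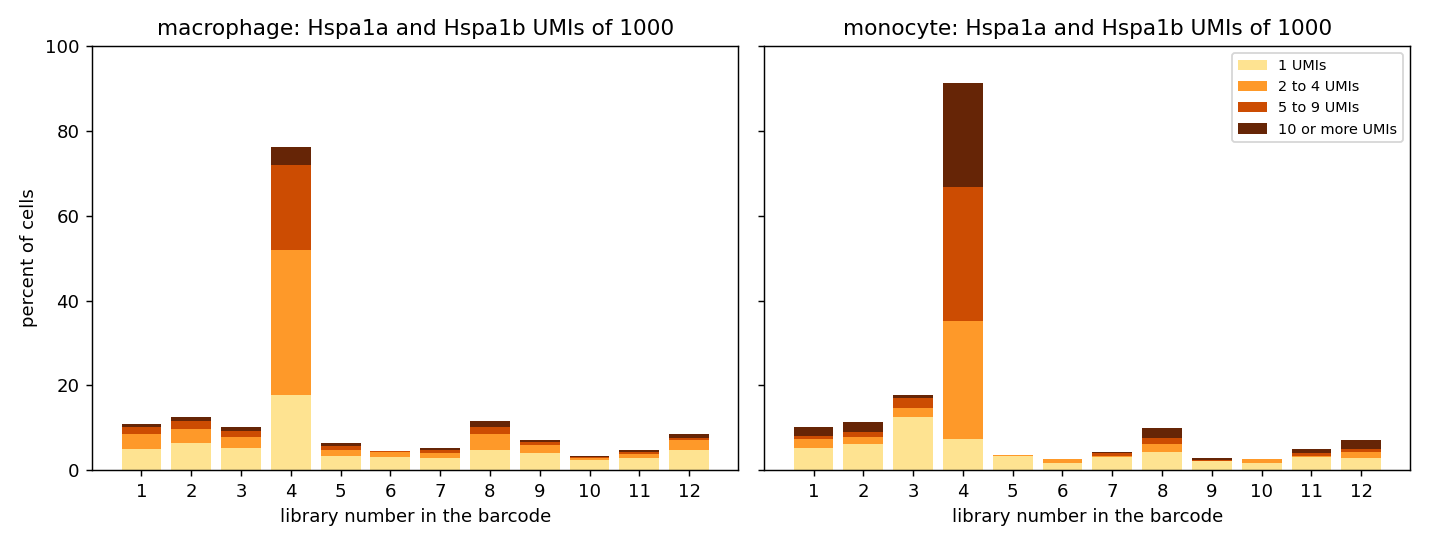
Percent of macrophages (left) and monocytes (right) of each library with 1, 2 to 4, 5 to 9 or 10 or more Hspa1a and Hspa1b UMIs after every cell was thinned to 1000 UMIs. In library 4 76.1% of macrophages and 91.2% of monocytes held at least 1, whereas no other library passed 12.5% of macrophages or 17.6% of monocytes.

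Hspa1a and Hspa1b were often found in the same cells. In macrophages the share with an Hspa1b UMI was higher among cells with an Hspa1a UMI than among those without in 12 of 12 libraries, with a median of 35.2% against 1.46%. The range was 20.8 to 71.9% with Hspa1a and 0.795 to 36.3% without, both highest values being those of library 4. The same direction was seen in 6 of 6 libraries for monocytes and 3 of 3 for neutrophils.

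In the other libraries the few macrophages rich in Hspa1 transcripts had higher levels of the other members too. Macrophages with at least 5 Hspa1a and Hspa1b UMIs of 1000 were set against macrophages of the same library with none. Both counts were made after thinning. Levels were taken at full depth, where cells with none could still hold Hspa1 UMIs. The 11 libraries with at least 20 cells rich in Hspa1 were used. Library 10, with 13, was left out. Hsp90aa1 measured a median of 3543 CPM with and 431 CPM without in the 10 libraries other than 4, a median of 8.30-fold with a range from 5.05 to 13 times. Hsph1 stood at 628 against 26.2 CPM (22.6-fold, 13.3 to 35.0), Dnajb1 at 404 against 45.5 CPM (8.82-fold, 4.95 to 15.5) and Hspb1 at 374 against 1.68 CPM (118-fold, 36.0 to 438). All 4 were higher in 10 of 10 libraries. The constitutive and mitochondrial members were higher in 10 of 10 libraries too, by less. Hspa8 differed 2.09-fold (1.28 to 2.41), Hspe1 2.53-fold (1.99 to 3.28) and Hspd1 2.57-fold (2.07 to 4.12). Dnaja4 was at 4.97 against 0.454 CPM, higher in 8 of 10 libraries.

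In library 4 the same comparison, with 1382 and 1360 cells, gave a different profile. Its groups also lay less far apart in Hspa1 content. Hspa1a measured 3148 CPM with and 381 CPM without (8.23-fold). In the 10 others the medians were 5413 and 29.8 CPM, with a median of 228-fold. The part of this in the smaller folds of library 4 was not tested. Hsp90aa1 measured 777 CPM with and 465 CPM without (1.67-fold), below the lowest of the other 10 libraries. Hsph1 (2.57-fold), Dnajb1 (2.62-fold), Hspe1 (1.36-fold) and Hspd1 (1.69-fold) were below that range as well. Hspb1 was lower in the cells with Hspa1 transcripts, at 11.1 against 32.6 CPM (0.361-fold), while in all 10 other libraries it was higher. Hspa8 at 1.52-fold lay inside the range. Since every cell was chosen on its own Hspa1 UMIs, these folds describe the cells and were not tested.

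**Figure D3:**
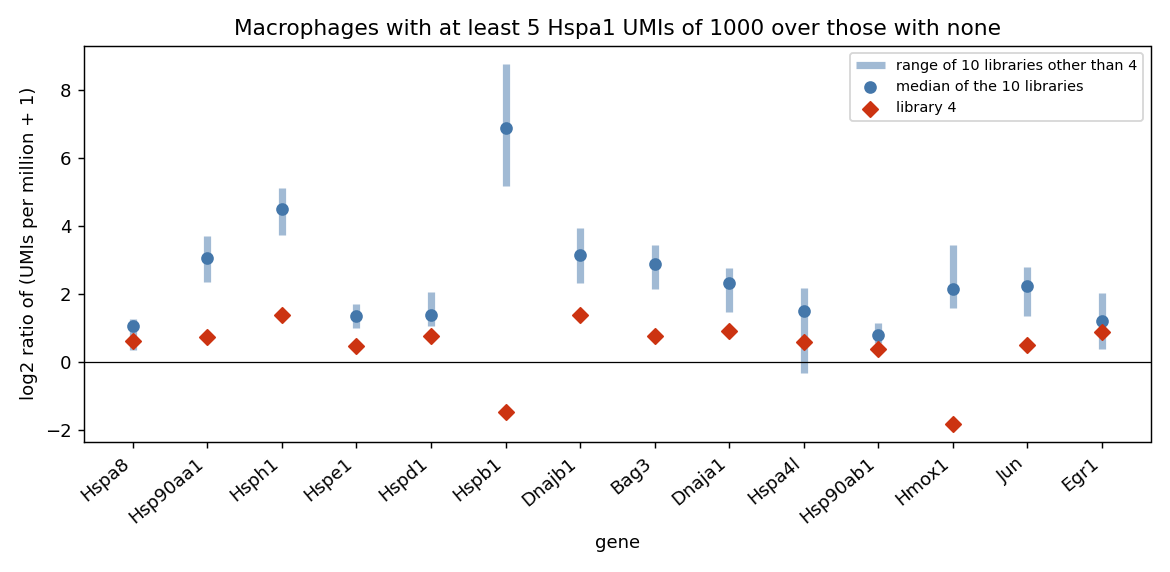
Ratio, on a log2 scale, of the level in macrophages with at least 5 Hspa1a and Hspa1b UMIs of 1000 to the level in macrophages with none, for 7 members and 7 further stress genes; bars span the 10 libraries other than 4 with at least 20 such cells, circles are their median and diamonds library 4. Library 4 lies below the bar for the members Hsp90aa1, Hsph1, Hspe1, Hspd1, Hspb1 and Dnajb1. It also does for Bag3, Dnaja1, Hsp90ab1, Hmox1 and Jun, and lies within the bar for Hspa8, Hspa4l and Egr1. Hspb1 and Hmox1 lie below 0 only in library 4. Hspa1 UMIs were counted after thinning.

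The profile differed at matched Hspa1 content as well. Among macrophages with 5 to 9 Hspa1 UMIs of 1000, Hsp90aa1 averaged 0.785 UMIs of 1000 in library 4 and 2.22 to 3.68 in the 8 other libraries with at least 20 such cells. Hspb1 averaged 0.00351 in library 4 and 0.0833 to 0.398 elsewhere, and Hspe1 0.447 against 0.697 to 1.15. Hsp90aa1, Hsph1, Hspe1, Hspd1 and Hspb1 were each above library 4 in 8 of 8 libraries, Dnajb1 in 7 of 8 and Hspa8 in 6 of 8. In the 244 macrophages of library 4 with 10 or more Hspa1 UMIs, Hspb1 averaged 0.0738, above its other bins. The other libraries with at least 20 such cells had 0.333 to 0.652.

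Depth differed with the choice. In library 4 the median was 6097 UMIs with and 6431 without Hspa1 transcripts, with a mitochondrial share of 3.66 and 3.45%. In library 2 it was 6163 and 8344 UMIs, with 4.67 and 5.45%. The cells with Hspa1 transcripts had the lower median UMIs in all 12 libraries and the higher mitochondrial share in 8 of 12, and the part of depth in these folds was not tested beyond the matched bins of thinned cells.

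Some further chaperone genes were higher in the same cells of the other libraries. Of the 44 cochaperones and HSF1 targets 37 passed the filter and 4 were at least 2-fold higher by the median of 10 libraries, with 0 lower, beside 2.23% higher and 4.12% lower of all 7402 genes. They were Bag3 (7.31-fold), Dnaja1 (4.97-fold), Dnajb4 (3.45-fold) and Hspa4l (2.81-fold). The next was Hsp90ab1, the constitutive HSP90 (1.73-fold, 10 of 10 libraries). Hspa4, another HSP110 gene, stood at 0.635-fold and was higher in 0 of 10 libraries. The median log2 difference over the list was −0.05 and over all genes that passed −0.30. In library 4 none of 36 was 2-fold higher or lower (1.22 and 1.42% of all genes), with Dnaja1 at 1.88-fold and Bag3 at 1.71-fold.

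In the same cells 2.23% of all genes were 2-fold higher. Of 17 genes of the unfolded protein response 2 were, Dnajb9 (2.15-fold) and Ddit3 (2.09-fold), and Hspa5, its main chaperone, stood at 1.41-fold in 10 of 10 libraries. Of 19 immediate early genes 5 were 2-fold higher: Jun (4.73-fold), Klf2 (3.15-fold), Atf3 (2.52-fold), Egr1 (2.30-fold) and Jund (2.03-fold). In library 4 3 of the 19 were, beside 1.22% of all genes. Hmox1 was 4.43-fold and Mt2 3.12-fold higher in 10 of 10 libraries. In library 4 both went the other way, at 0.282-fold and 0.498-fold. Gclm stood at 0.476-fold there and at 0.822-fold in the other libraries, where it was higher in 4 of 10. In library 4 Hmox1 stood at 699 CPM in macrophages with Hspa1 transcripts and at 2477 CPM in those with none.

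All genes that passed the filter but the 10 members were ranked by fold after the values were seen. Listed genes such as Bag3, Dnaja1 and Jun were thus among those ranked. In the 10 other libraries the first 20 genes held Ifnb1, which encodes interferon beta (35.0 against 1.03 CPM), the cytokine gene Lif (25.1 against 1.71 CPM), the peptide hormone gene Adm (32.7 against 3.42 CPM), the damage-response genes Gadd45a (88.2 against 12.9 CPM) and Ddit4 (116 against 14.9 CPM), and Csf1 (64.4 against 13.5 CPM). All 6 were higher in 10 of 10 libraries. Ifnb1, Lif and Adm passed the filter only through the cells rich in Hspa1 transcripts, so the filter itself favored their high folds. The fold of Ifnb1 ran from 2.61 to 83.2, with 33 to 224 such cells per library. In library 4 Adm and Gadd45a were lower with Hspa1 transcripts than without (0.252-fold and 0.657-fold), and Ifnb1 stood at 0.321 and 0.941 CPM, under the 10 CPM filter on both sides. Its own ranking held Ccr2, the chemokine receptor of monocytes (511 against 121 CPM), Chil3 (178 against 45.4 CPM), Ccl17 (63.5 against 7.73 CPM) and Il1b (1496 against 451 CPM). Of these, Ccl17 passed the filter only through the cells with Hspa1 transcripts. In the other libraries Il1b was lower with Hspa1 transcripts in 10 of 10 and Ccr2 in 9 of 10.

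In monocytes, 4 libraries had at least 20 cells with 2 or more Hspa1 UMIs of 1000, and Hsp90aa1 and Hsph1 were higher with than without in 4 of 4. Hsp90aa1 differed 2.13-fold in library 4 and up to 16.2-fold elsewhere. In T cells 2 libraries qualified, both with Hsp90aa1, Hsph1, Dnajb1 and Dnaja4 higher in the cells with Hspa1 transcripts.

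Across cell classes each member had its own order. Levels are given as the median over libraries with at least 20 cells of the class, and counts of libraries compare classes within a library. Neutrophils had the highest Hspa1a (545 CPM, 77.7 to 1518) and were above macrophages (137 CPM) in 10 of 12 libraries. Their Hspa1b (233 CPM) was above in 10 of 12, and their Hsp90aa1 (1165 CPM, 394 to 1769) was above that of macrophages (524 CPM, 421 to 715) in 11 of 12 and above that of monocytes in 12 of 12. The constitutive and mitochondrial chaperones were lower in neutrophils than in macrophages, as were many other genes. The median log2 difference over all genes that passed the filter was −0.76, near the −0.88 of Hspa8. Hspe1 stood at −2.45 and Hspd1 at −2.21. Hspa8 measured 1049 CPM against 1938 CPM in macrophages, Hspe1 76.7 against 423 CPM and Hspd1 36.7 against 173 CPM, each below macrophages in 12 of 12 libraries. Hsph1 measured 11.4 against 41.3 CPM.

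**Figure D4:**
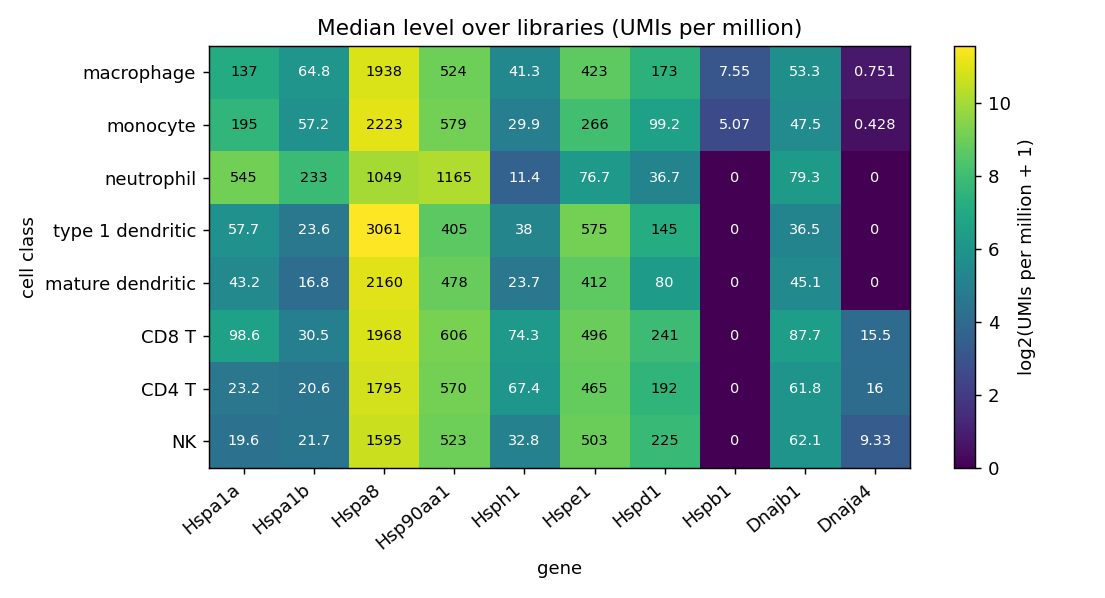
Median level over libraries of the 10 genes in 8 cell classes, in CPM, with color on a log2 scale of the level plus 1. Neutrophils combine the highest Hspa1a, Hspa1b and Hsp90aa1 with the lowest Hspe1 and Hspd1, and Dnaja4 exceeds 1 only in T and NK cells.

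Of 8 members that passed the filter in neutrophils or macrophages, 3 were at least 2-fold higher in neutrophils (Hspa1a, Hspa1b, Hsp90aa1; 12.9% of all genes) and 3 at least 2-fold lower (Hsph1, Hspe1, Hspd1; 42.5% of all genes), by medians over libraries. In pooled cells, which take in library 4, Hsph1 was 0.645-fold, short of 2-fold lower. Its median fold within libraries was 0.239. Of 36 cochaperones 22 were 2-fold lower and 1, Hspa4l, higher, and of 19 immediate early genes 12 were higher. Neutrophils were shallow, with a median of 1580 UMIs and 0.600% mitochondrial UMIs against 5598 UMIs and 4.71% in macrophages. The Hspa1a excess of neutrophils over macrophages in pooled cells was 3.02-fold, 2.89-fold in libraries 1 to 6 and 4.21-fold in libraries 7 to 12. The first 2 of these values take in library 4, where neutrophils made up 9.05% of the kept cells. Within library 4 their Hspa1a stood at 64.3% of the macrophage level. The median fold within the 12 libraries was 2.76, from 0.643 to 10.3.

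Dendritic and monocytic classes differed in the constitutive chaperones. Type 1 dendritic cells, which cross-present antigen to CD8 T cells, had the highest Hspa8 (3061 CPM, 1800 to 4335) and were above macrophages in 10 of 10 libraries, by 1.34-fold in pooled libraries 1 to 6 and 1.79-fold in 7 to 12. Their Hspe1 (575 CPM) was above that of macrophages in 9 of 10 and above that of mature dendritic cells in 10 of 10. Mature dendritic cells had low Hspd1 (80.0 CPM), below macrophages in 12 of 12 libraries, and low Hspa1a (43.2 CPM), below in 11 of 12. Monocytes had more Hspa8 than macrophages in 12 of 12 libraries (2223 CPM) and less Hspe1 (266 CPM) and Hspd1 (99.2 CPM) in 12 of 12. By the ratio of medians over libraries, the members at least 2-fold from macrophages were 0 of 8 in monocytes (background 3.97% higher and 7.49% lower), Hspa1a and Hspa1b, both lower, in type 1 dendritic cells (background 8.01% higher and 17.4% lower), and these with Hspd1, all lower, in mature dendritic cells (background 13.4% higher and 26.4% lower). The Hspa1 calls depended on that summary. In pooled cells Hspa1a was 2.14-fold in monocytes, 0.889-fold in type 1 and 0.569-fold in mature dendritic cells, and Hspa1b was 0.796-fold in type 1 and 0.658-fold in mature dendritic cells. Pooled values take in library 4, the highest for Hspa1a in each of these classes. Without it the medians of Hspa1a were 131 CPM in monocytes, 49.9 CPM in type 1 and 37.6 CPM in mature dendritic cells, and 115 CPM in macrophages.

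T cells stood out by Dnaja4, which encodes a type 1 J-domain protein. In CD8 T cells it measured a median of 15.5 CPM (12.2 to 37.0) and in CD4 T cells 16.0 CPM (6.87 to 41.5), against 0.751 CPM (0.222 to 4.80) in macrophages. CD8 T cells were above macrophages in 11 of 11 libraries, 14.1-fold in pooled libraries 1 to 6 and 18.6-fold in 7 to 12. NK cells stood at 9.33 CPM (0 to 19.5), below CD8 T cells in 5 of 6 libraries, with 10 of 390 cells holding a UMI. A Dnaja4 UMI was found in 7.56% of CD8 T cells (exact Clopper-Pearson 95% interval 6.69 to 8.52%) at a median of 3388 UMIs and in 0.788% of macrophages (0.731 to 0.849%) at 5598 UMIs. Thinned to 1000 UMIs the shares were 2.18% (1.70 to 2.75%) and 0.108% (0.0876 to 0.132%). These intervals cover counting error only.

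**Figure D5:**
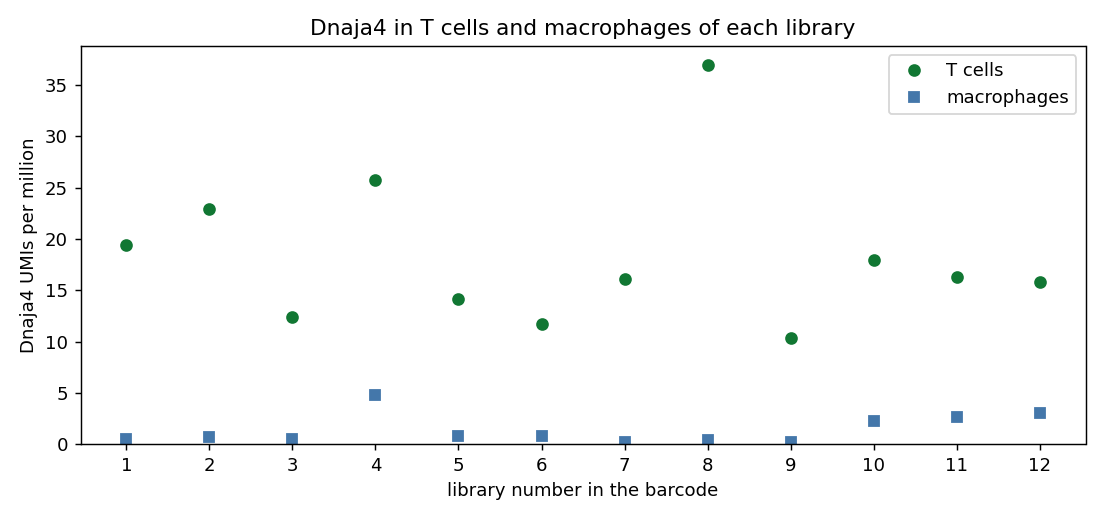
Dnaja4 in CPM in T cells (circles) and macrophages (squares) of each library. All 12 libraries have more in T cells, from 10.4 to 37.0, than in macrophages, from 0.222 to 4.80; library 4 has 25 T cells and 2 Dnaja4 UMIs.

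The share of T cells with a Dnaja4 UMI ran from 2.41% in library 6 to 17.3% in library 8, the libraries with the lowest and nearly the highest depth. After thinning, library 6 had 1.46% and library 8 had 3.62%, and their levels were 11.7 and 37.0 CPM. Pooled over libraries, T cells with Dnaja4 had more Hspa1a (299 against 93.0 CPM), Hspa1b (172 against 52.9 CPM) and Dnajb1 (157 against 84.6 CPM) than T cells without. Within the 9 libraries with at least 20 such cells this held for Hspa1a in 4, for Hspa1b in 5 and for Dnajb1 in 7, and library 8 alone held 163 of the 430 cells with Dnaja4.

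Hsph1 and Dnajb1 were also higher in CD8 T cells than in macrophages in 11 of 11 libraries, at 74.3 against 41.3 CPM and 87.7 against 53.3 CPM. Hspa1a was lower in 10 of 11 (98.6 CPM). By the ratio of medians, of 9 passing members Dnaja4 was at least 2-fold higher in CD8 T cells (background 13.8%) and Hspa1b at least 2-fold lower (0.479-fold, background 17.3%). In pooled cells Hspa1a was also over 2-fold lower (0.387-fold), and by the median fold within libraries Hspa1b was not (0.547-fold). Dnaja4 passed the filter only through CD8 T cells (15.5 against 0.751 CPM). At that macrophage level its 2-fold call was set by the filter. NK cells had less Hspa8, Hsp90aa1, Hsph1 and Hspa1a than CD8 T cells in the 6 libraries with enough NK cells. Over all cells the NK level was 1.04-fold that of CD8 T cells for Hspa1a and 1.90-fold for Hspa1b, so the direction for the Hspa1 pair rests on those libraries. Between CD4 and CD8 T cells no member was above, or below, in all 9 libraries. Hspb1 had its highest medians in macrophages and monocytes (7.55 and 5.07 CPM) and a median of 0 in neutrophils, in both dendritic classes with at least 10 libraries, and in CD4, CD8 and NK cells.

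The summed level of the 10 genes had different leading members in different classes. In neutrophils Hsp90aa1 (1165 CPM) stood above Hspa8 (1049 CPM) by the median over libraries, and Hspa1a and Hspa1b together were below both by that median (799 CPM) and above both in pooled cells (1213 CPM). Pooled neutrophils take in library 4, and without it the median of the pair was 712 CPM. In library 4 the Hspa1 pair made up 6281 CPM of the sum in monocytes and 5123 CPM in type 1 dendritic cells, above Hspa8 at 2482 and 4208 CPM. By the median over libraries the order was type 1 dendritic cells (4674 CPM, 2963 to 11437), neutrophils (3644 CPM, 1659 to 5769), monocytes (3571 CPM, 2711 to 9855), CD8 T cells (3486 CPM, 2931 to 4569), macrophages (3411 CPM, 2696 to 6481), mature dendritic cells (3364 CPM, 2354 to 4261), T cells with neither CD4 nor CD8 gate (3336 CPM, 2849 to 4406), CD4 T cells (3271 CPM, 2658 to 4546) and NK cells (3030 CPM, 2461 to 3524). Collagen-positive cells reached 4560 CPM in the 1 library with enough cells, and B cells (2018 CPM) and plasmacytoid dendritic cells (1806 CPM) had 3 libraries each. Over all cells of these last classes, small libraries included, the sums were 3359 and 3024 CPM, and the Hspa1 pair of plasmacytoid dendritic cells stood at 488 CPM against a median of 11.5 CPM. All neighbours among the classes with 6 or more libraries overlapped, and the order by medians was not the order within libraries: neutrophils were above macrophages in 5 of 12 (median 0.923-fold) and above monocytes in 4 of 12 (median 0.903-fold). Within libraries, type 1 dendritic cells were above macrophages in 10 of 10 and above mature dendritic cells in 10 of 10, and NK cells below CD8 T cells in 6 of 6. Without library 4 the order of the first 2 classes was kept, at 4613 and 3619 CPM, while CD8 T cells passed monocytes (3486 and 3375 CPM).

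Cycling cells, with at least 2 UMIs of Mki67, Top2a, Cdk1, Birc5, Ube2c or Ccnb2, differed in single members. In macrophages Hspd1 measured a median of 201 CPM in cycling cells and 153 CPM in cells with none of these UMIs, higher in 12 of 12 libraries (1.38-fold, 1.22 to 1.52), and in 12 of 12 after thinning. Hspe1 was higher in 10 of 12 and Hsp90aa1 in 9 of 12. Hspa1a went the other way, at 86.8 against 172 CPM, higher in cycling cells in only 1 of 12 libraries (median 0.557-fold), and Hspb1 in 0 of 12 at full depth. In T cells, where cycling cells had a median of 7284 UMIs and the rest 2266, Hspa8, Hsp90aa1 and Hspd1 were higher in cycling cells in 9 of 9 libraries, and after thinning in 9, 8 and 6 of 9. The sum of the 10 genes was 1.04-fold in cycling macrophages, higher in 9 of 12 libraries, and 1.16-fold in cycling T cells, higher in 9 of 9. Cycling macrophages had a median of 11590 UMIs and the rest 7703.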

How the data were processed

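The authors deposited 1 matrix of raw UMI counts, made from 10x 3′ v3 single-cell libraries. The submitters' processing notes name Cell Ranger 2.1.1, Seurat and the build mm10; the matrix header names 3.0.2. Which annotation was used is not stated in the labels, paper or file headers. The members and gene lists were chosen with earlier results of these data known. The study's limits were applied: a barcode needed over 200 but under 5000 detected genes, with no more than 10% of its UMIs mitochondrial. Gates on marker UMIs were set once depth had been seen: macrophages needed at least 10 C1q UMIs, other classes at most 5. No doublet caller was run. Gates allowed at most 1 detected marker of each of several other lineages. The macrophage and neutrophil gates set no limit on monocyte markers, so mixed cells can remain. UMIs were summed per class and library and scaled to a total of 1000000 (CPM), with 20 cells needed. Folds of library 4, of Hspa1-rich cells and behind 2-fold calls used a pseudocount of 1 CPM and genes of at least 10 CPM on either side; the folds of pooled classes, cycling cells and thinned cells used none. Cells were thinned to 1000 UMIs by a hypergeometric draw, and shares have exact Clopper-Pearson intervals. Libraries held 21649947 to 158760328 UMIs, and small classes carry the largest counting error. Classes under 50 cells were left out. Named genes were the 10 members, up to 5 genes per list with the largest fold in library 4 macrophages at 20 CPM or more, and those most like the members at 50 CPM or more; others were named after their values were seen. The fold step was tested on simulated data, and thinned cells were checked against the mean that their full counts give. Python 3.11.15, numpy 2.4.6, pandas 2.3.3 and scipy 1.17.1 were used.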

Additional observations from a re-analysis of the deposited data

How the results depend on the processing

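Of 218 values of 20 results recomputed under 15 other settings, 190 moved by less than the spread between libraries, and 0 folds changed sides of 1. For 3 results that spread was wider than the value itself, among them Hspa1a of neutrophils over macrophages (3.02, SD 3.44) and Dnaja4 of CD8 T cells over macrophages (16.5, SD 28.0), so staying within it says little there. The fold of library 4 for Hspa1a in neutrophils, 1.81, was 1.04 by the mean over cells, 1.06 without the deepest 10%, 1.22 with stricter gates and 1.28 in thinned cells. The position of neutrophils among 6 classes by the summed level of the 10 genes in pooled cells, 5, has no spread and was compared by equality. It became 6 with a mitochondrial limit of 5%, with stricter gates, with a mean over cells, with scaling without members and mitochondrial UMIs, without the deepest 10% of cells, without library 6 and with at most 2 C1q UMIs, 2 by the median over libraries and 3 in libraries 1 to 6. The fold of library 4 over the median of the others moved for Hspa1a in macrophages from 13.1 to 13.9 (limit of 5%), 12.3 (stricter gates), 11.9 (mean over cells), 11.6 (thinned cells) and 9.49 (libraries 1 to 6 alone). For Hspa1b in macrophages it moved from 22.6 to 25.7 (limit of 5%), 18.9 (mean over cells), 18.4 (thinned cells), 21.1 (without the deepest 10%) and 17.5 (libraries 1 to 6 alone). For Hspa1a in monocytes it moved from 27.0 to 25.4 (limit of 5%), 25.2 (no limit), 28.1 (stricter gates), 23.8 (mean over cells), 29.7 (thinned cells), 23.1 (without the deepest 10%), 23.9 (at most 2 C1q UMIs) and 13.7 (libraries 1 to 6 alone). The ratio of Hsp90aa1 in macrophages with over without Hspa1 transcripts in the other libraries, 8.30, became 5.50 with at least 2 UMIs of 1000. The causes were not tested. The settings at most 2 C1q UMIs, at least 2 Hspa1 UMIs and separate library sets were chosen after seeing the data. So was leaving out library 4 for the results on shares and joint detection of the inducible members. No paired analysis was possible because the labels tie no library number to a mouse or a treatment, and no group was compared. Depth limits the classes with few cells: library 4 had 25 T cells and 26 type 1 dendritic cells.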

Other observations

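The genes most like the summed 10 members were ranked by Spearman correlation, as a description over points that share depth and base composition. Over the 12 libraries in macrophages, among 2761 genes of at least 50 CPM, the first 5 were Dnaja1 (rho 0.93), Dynll1 (0.90), Gabarap (0.86), Commd6 (0.85) and Ufm1 (0.83). Dnaja1 ranged from 179 to 386 CPM and is a partner of HSP70, while Gabarap acts in autophagy and Ufm1 is a small protein modifier. Over 12 cell classes the first 5 of 2835 genes were Ube2n (rho 0.92), Eif4a1 (0.90), Mrpl20 (0.90), Psmd13 (0.90) and Stard3nl (0.89), of which Psmd13 encodes a proteasome subunit and Eif4a1 a translation factor.

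In neutrophils of library 4, cells with 5 to 9 Hspa1 UMIs of 1000 had a median of 3327 UMIs and 2.85% mitochondrial UMIs, against 1627 UMIs and 0.472% in cells with none. The part of cell mixtures in this was not tested.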
